A study of Rattus norvegicus with 6 samples.

Results

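The data concerned 4 ubiquitin ligase genes of the rat brain, Pja2, Trip12, Ube3c and Ube4a, whose transcript isoforms had been seen to differ between 2 inbred strains in earlier fits of these same libraries. They were taken as the loci of the deposited annotation that carry those gene names, and they make up 4 of 24744 loci, of which 8336 have a symbol. The genes were thus chosen on the isoform levels of these libraries, so every difference between strains in these genes is given as a description, with no p. The 4 loci hold 48 annotated isoforms of 64488 in the series. Of these, 43 share exons with a transcript named for the gene, directly or through another isoform. The other 5 are 2 isoforms of Atp5mg, which the annotation joins to the Ube4a locus at a distance of 2426 bases, and 3 unnamed isoforms that lie 6092 bases away from the exon-sharing isoforms of Trip12.

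PolyA RNA of the whole brain was sequenced from untreated male rats of both strains, 3 BN-Lx/CubPrin (BNLx) and 3 SHR/OlaIpcvPrin (SHR), with 1 library per rat. BNLx is a Brown Norway congenic line that carries the polydactyly-luxate syndrome, and SHR is the spontaneously hypertensive rat. A whole brain mixes cell types, so a change within 1 cell type and a change in the number of those cells cannot be told apart. The annotation was assembled from these reads with StringTie, and aptardi, a program that predicts polyadenylation sites from RNA-seq coverage and DNA sequence, added isoforms with other 3′ ends. Original isoforms are those that StringTie wrote, and aptardi isoforms are copies of them with a moved 3′ end. Here 28 of the 48 isoforms came from aptardi and 20 were original.

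Ubiquitin is attached to proteins by an activating enzyme (E1), a conjugating enzyme (E2) and a ligase (E3), and the ligase selects the substrate. RING and U-box ligases bring the loaded E2 to the substrate, whereas HECT ligases first take the ubiquitin onto a cysteine of their own. Pja2 is a RING ligase that marks regulatory subunits of protein kinase A for degradation. Trip12 is a HECT ligase known from the degradation of ubiquitin fusion proteins. Ube3c is a HECT ligase that binds the proteasome and extends ubiquitin chains there, and Ube4a is a U-box ligase that elongates chains begun by other ligases. In neurons, turnover by ubiquitin shapes synapses and receptor signalling.

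Libraries held 32826625, 11747048 and 12591827 expected counts in BNLx rats, and 41333078, 21745966 and 22475206 in SHR rats, where an expected count is the RSEM estimate of how many fragments came from an isoform. Among the rats of a strain, SHR replicate 1 and BNLx replicate 3 were unlike the rest. The chi-square per degree of freedom between the counts of replicates was 10.4 for BNLx replicates 1 and 2 and 9 for SHR replicates 2 and 3, and lay between 75.1 and 123 for the pairs with either of those libraries. Of the marker genes with a named locus, the summed level of 3 neuronal markers (Snap25, Syt1, Gad1) was 2530 to 4433 CPM, counts scaled to a common library size, in BNLx and 2414 to 3307 in SHR. The other summed levels were 2048 to 3109 and 3002 to 4549 for 2 astrocyte markers, 3171 to 6520 and 1836 to 4129 for 3 oligodendrocyte markers, 87 to 100 and 98.2 to 129 for 4 microglial markers, and 3.49 to 28.6 and 5.45 to 35.5 for Aqp1 of the choroid plexus, in BNLx and SHR in that order. None of these 13 genes was called by the gene test of edgeR, 3 had an unadjusted p of 0.05 or less (Slc1a3, log2 0.41, and the myelin genes Mog and Mobp, -0.96 and -1.39), and DESeq2 called 1, Mobp (adjusted p = 0.00394). No locus carried the name of a listed marker of endothelium, red blood cells, pituitary or muscle, so these were not checked. The part of the markers and of the libraries that stood apart in the differences below was not tested.

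The totals of the 4 genes overlapped between the strains while their isoforms did not divide the totals in the same way. Pja2 reached 827, 867 and 721 CPM in the BNLx rats, numbered 1 to 3 in this order throughout, and 637, 838 and 833 CPM in the SHR rats. SHR replicate 1 had the lowest value and BNLx replicate 3 the next. The log2 fold change (SHR over BNLx, edgeR) was -0.07 with a standard error (SE) of 0.17.

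The locus of Trip12, with its 3 separate isoforms counted, stood at 183, 204 and 228 CPM in BNLx rats, and 191, 249 and 238 in SHR (log2 0.14, SE 0.16). With SHR replicate 1 and BNLx replicate 3 left out together this became 0.33 (SE 0.07). The libraries then left also differed by strain in a whole-library shift of 3′ ends, given below. Ube3c had 109, 112 and 108 CPM in BNLx rats, and 102, 126 and 126 in SHR (log2 0.1, SE 0.12), again with SHR replicate 1 the lowest of the 6. The isoforms of Ube4a summed to 85, 80.5 and 112 CPM in BNLx rats, and 98.1, 103 and 98.8 in SHR (log2 0.11, SE 0.15). The deposited gene value of the Ube4a locus also counts Atp5mg, a subunit of the mitochondrial ATP synthase, and was 214 ± 11.3 CPM (SD, n = 3) for BNLx against 205 ± 26.3 (SD, n = 3) for SHR (log2 -0.07, SE 0.13). Thus the sign of the Ube4a difference turned with the isoforms that were summed.

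Of all 14471 genes tested, 0.947% were called by edgeR at an adjusted p of 0.05 and 17.4% had CPM values that did not overlap between the strains. All 4 ligase genes had totals that overlapped, as most genes did, so this does not set them apart. Per length, in TPM, which corrects for transcript length and library size, Pja2 was the most abundant of the 4, at 394 ± 17.5 in BNLx and 425 ± 104 in SHR rats (mean ± SD of 3), and 1.53% of genes had a higher mean TPM. Ube3c had 61.8 ± 5.64 and 66 ± 6.7 TPM, Trip12 58.8 ± 10.4 and 66.6 ± 14.1, and Ube4a 32.6 ± 8.86 and 38.7 ± 4.7, in BNLx and SHR. Ube3c and Trip12 did not differ beyond their spread, while in each library Pja2 stood above and Ube4a below both. The plot of totals shows the single libraries.

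**Figure D1:**
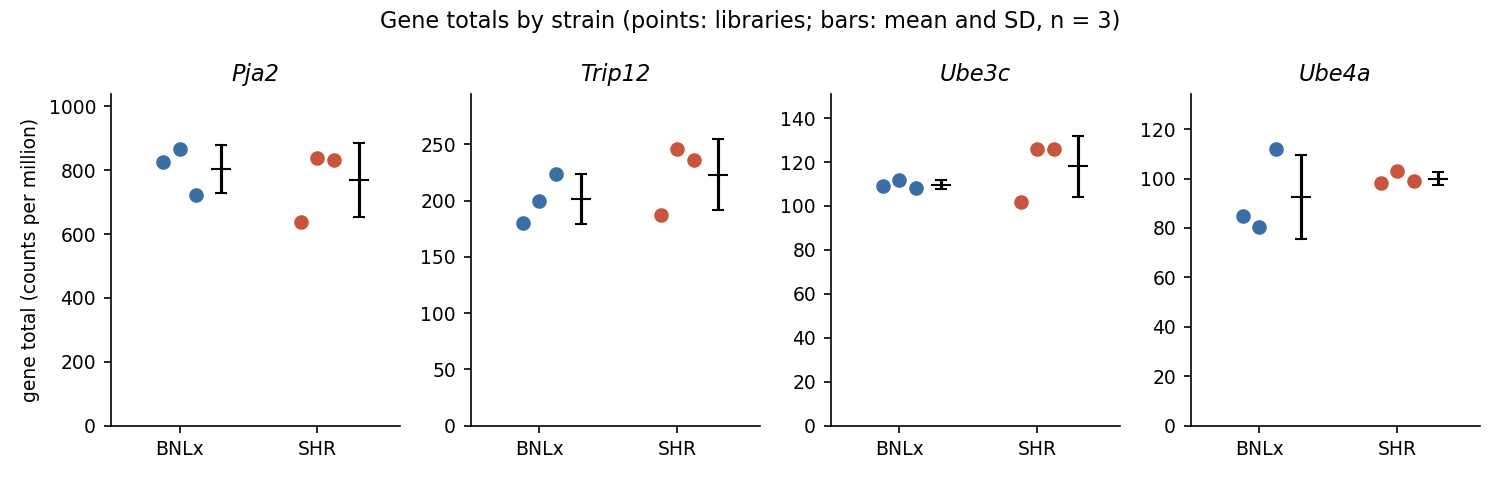
Gene totals in CPM (y axis) of the 4 ligase genes by strain (x axis), with the exon-sharing isoforms summed; points are libraries and bars the mean and SD (n = 3). The strains overlap in each gene, and SHR replicate 1 is the lowest SHR library of each (637 CPM for Pja2).

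Of the 48 isoforms, 25 passed the filter of 50 counts in 2 of 3 replicates of a strain. One of these belongs to Atp5mg, and the other 24 are 6 of Pja2, 9 of Trip12, 6 of Ube3c and 3 of Ube4a. A further 14 isoforms had counts but stayed under the filter, none of the 10 among them that share exons with the gene holding over 6.86% of its gene in any library, and 9 were at 0 in all 6 libraries. In each library, the share of an isoform is its expected count as a percentage of the counts of all exon-sharing isoforms of the gene.

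Of the 24 isoforms, 2 had 0 counts in every BNLx library and 3 had 0 counts in every SHR library. Across all 32348 isoforms past the filter, 1.24% were at 0 in every library of 1 strain (0.912% in all BNLx rats and 0.328% in all SHR rats). At least 1 such isoform was found in 3 of the 4 genes, Pja2, Ube3c and Ube4a, against 3.94% of 7742 loci. As shares of the whole locus, 10 of the 24 isoforms did not overlap between strains, against 16.7% of isoforms over all loci that kept 2 or more after filtering, and mean shares differed by 10 percentage points or more for 5, against 16.3%. Because isoform differences chose the genes, these counts only describe them. The stacked plot gives the shares by library.

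**Figure D2:**
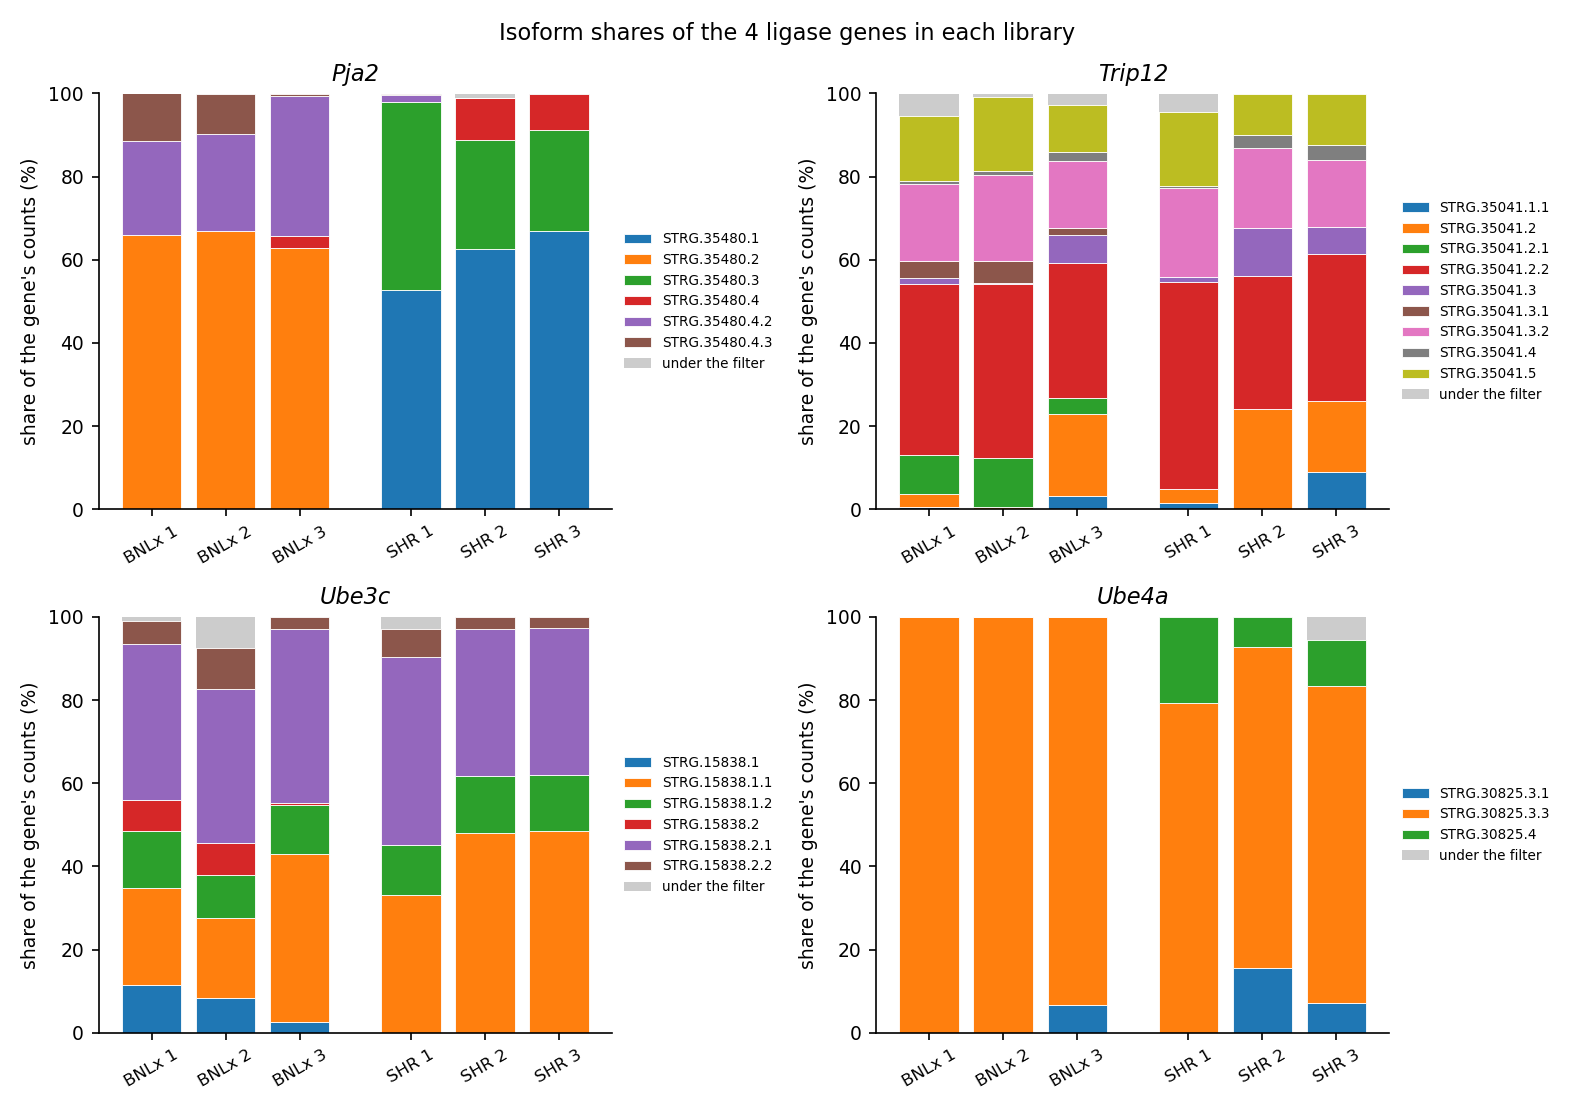
Share of each gene's counts (y axis, %) held by each isoform past the filter in each of the 6 libraries (x axis), with isoforms under the filter in grey. In Pja2 the bar of STRG.35480.2, 62.8% to 67% in BNLx, has no counterpart in SHR, where STRG.35480.1 takes 52.7% to 66.8%.

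Pja2 lies on the minus strand of rn6 chromosome 9 (111998116 to 112027240), and the annotated isoform that held most of its counts was another in each strain. The original isoform STRG.35480.2, of 9 exons and 4596 bases, held 65.9%, 67% and 62.8% of the Pja2 counts in BNLx replicates 1 to 3. It had no count in any SHR library, of 17673 to 27450 Pja2 counts there, which allows a share of up to 0.017% in the shallowest. In CPM it stood at 534 ± 61.1 in BNLx (SD, n = 3), at least 4548-fold lower in SHR against a floor of 3 counts per library.

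STRG.35480.1 showed the opposite pattern. It had no count in BNLx, which allows up to 0.032%, and held 52.7%, 62.5% and 66.8% in SHR (476 ± 115 CPM, SD, n = 3), at least 2410-fold higher. The strains did not come near each other for either isoform. These 2 isoforms share both ends and 4568 bases and differ only by 28 bases. The 28 bases are annotated as an intron in STRG.35480.1 and as part of an exon in STRG.35480.2. In the series, 22 of 7742 loci (0.284%) held both an isoform at 0 in BNLx and another at 0 in SHR, and Pja2 was the locus among the 4 genes that did.

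The 28 bases (rn6 chromosome 9, 111999528 to 111999555) lie inside the last exon of 2513 bases, with 1160 bases of that exon before them and 1325 bases between them and the 3′ end. The isoforms with this intron, STRG.35480.1 and STRG.35480.3, held 0.171%, 0% and 0% of the Pja2 counts in BNLx rats, and 97.9%, 88.8% and 91.1% in SHR. STRG.35480.4 ends before this position and says nothing of it. Among the isoforms that span it, those with the intron made up 97.9%, 98.7% and 99.9% in the SHR libraries. The separation was thus near complete in all 6 libraries, with SHR replicate 1 and BNLx replicate 3 included.

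An intron of this size is rare in the annotation. Of 180618 distinct introns, 182 (0.101%) have 28 bases or less. Introns under 50 bases could be compared in 209 cases, where isoforms with the intron and isoforms with it as exon had together 50 counts or more in every library. The share of isoforms with the intron was at least 50 points higher in SHR for 19 of them (9.09%), Pja2 included, and at least 50 points lower for 2 (0.957%). The difference in Pja2, 98.8 points, ranked 2 of these 209. As Pja2 was chosen for its isoform differences in these libraries, this rank only describes it. A spliced intron and a stretch of bases missing from the SHR genome would leave the same gap in an alignment to a sequence that holds these bases. Whether the SHR sequence used for alignment held them is not given in the sources used here. An intron and a missing stretch cannot be told apart in these files. The annotation gives no reading frame, so whether the 28 bases are coding was not determined.

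A cassette exon, whose share overlapped between the strains, divided the same isoforms. This exon of 186 bases (rn6 chromosome 9, 112012580 to 112012765) is the fourth of the 9 exons of STRG.35480.2, and its length is that of 62 codons. Isoforms with it held 65.9%, 67% and 62.8% of the counts in BNLx rats, and 52.7%, 63.5% and 66.8% in SHR. The strains overlapped, and SHR replicate 1 was the lowest library. Among SHR isoforms with the 28-base intron, 53.8%, 70.4% and 73.3% carried the exon, and among BNLx isoforms without the intron 66%, 67% and 62.8% did. The plot of the 4 classes sets the short intron against the exon.

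**Figure D3:**
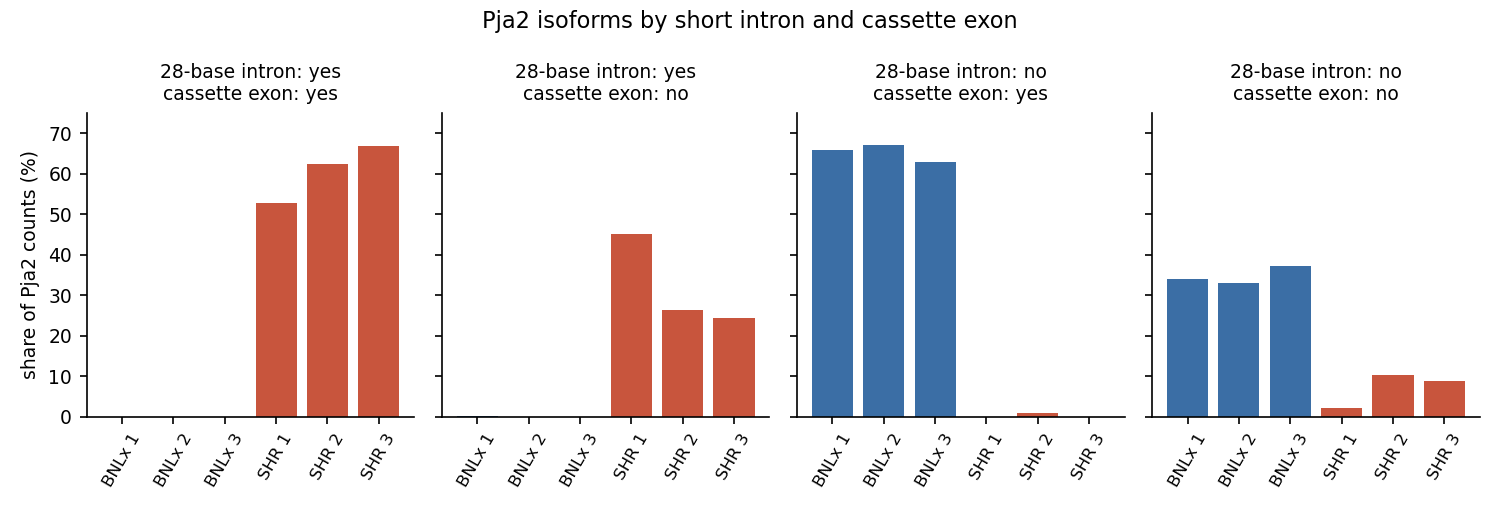
Share of Pja2 counts (y axis, %) in each library (x axis; BNLx blue, SHR red) for isoforms with or without the 28-base intron and the cassette exon. The classes with the intron are filled in SHR and reach at most 0.171% in BNLx, whereas both classes by exon are filled in each strain.

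STRG.35480.3, with the intron and without the exon, held 0.171%, 0% and 0% in BNLx rats, and 45.2%, 26.3% and 24.4% in SHR. In place of it, BNLx had STRG.35480.4.2, an aptardi isoform without either, at 22.4%, 23.3% and 33.6%, against 1.7%, 0% and 0% in SHR. In CPM the former went from 0.483 ± 0.836 to 240 ± 48.9 and the latter from 213 ± 31.3 to 3.71 ± 6.42 (SD, n = 3 each). The remaining isoforms past the filter, STRG.35480.4 and STRG.35480.4.3, held between 0% and 11.6% in single libraries. STRG.35480.4.3 was at 11.6% and 9.69% in BNLx replicates 1 and 2 and at 0.553% in BNLx replicate 3, near the SHR values of 0.0927% to 0.359%.

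The ends of Pja2 isoforms moved with the intron. Both isoforms with the intron have the start and the 3′ end of STRG.35480.2, and no annotated isoform joins the intron to another end. The 3′ end 313 bases before that one held 22.4%, 23.3% and 33.6% in BNLx rats, and 1.7%, 0.928% and 0% in SHR. A start 85 bases downstream held 33.9%, 33% and 37.2% in BNLx rats, and 2.06%, 10.3% and 8.85% in SHR. Reads of SHR with the gap could be assigned to 1 start and 1 end only, so a change of ends apart from the intron was not measured for Pja2.

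Trip12 (rn6 chromosome 9, minus strand, exon-sharing isoforms 92305058 to 92435365) differed between the strains in the counts assigned to 1 of its 3′ ends. Its most used isoforms changed little. STRG.35041.2.2, an aptardi isoform of 41 exons that ends 1589 bases beyond the original STRG.35041.2, held 41.1%, 41.8% and 32.6% of the Trip12 counts in BNLx rats, and 49.8%, 32.1% and 35.5% in SHR. STRG.35041.3.2, with the same 3′ end and another start, held 18.6%, 20.6% and 16% in BNLx rats, and 21.3%, 19.2% and 16.1% in SHR. STRG.35041.5, a StringTie isoform of 6 exons that covers the 3′ part of the gene, held 15.8%, 17.8% and 11.3% in BNLx rats, and 17.8%, 9.92% and 12.3% in SHR.

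The 3′ end 889 bases beyond that of STRG.35041.2 was assigned counts in BNLx and nearly none in SHR. Isoforms with it held 14.1%, 17.1% and 5.54% in BNLx rats, and 0.0105%, 0% and 0.0212% in SHR. All BNLx libraries lay above all SHR libraries, and BNLx replicate 3 was the lowest of its strain. The mean difference was -12.2 points, and -15.6 points without BNLx replicate 3. The levels were 24.2 ± 10.8 CPM in BNLx rats, and 0.0234 ± 0.0252 in SHR rats (mean ± SD of 3). Most of it came from STRG.35041.2.1, an isoform singled out after its values were seen, at 16.5 ± 7.23 CPM in BNLx rats, and 0.0165 ± 0.0178 in SHR, where it had less than 1 count in each library. All 7432 bases of STRG.35041.2.1 also lie in the longer STRG.35041.2.2. Its counts thus rest on how RSEM divided the reads that both share.

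The other ends of Trip12 overlapped between the strains. The end at 1589 bases held 63.4%, 62.5% and 48.7% in BNLx rats, and 75.3%, 51.3% and 51.7% in SHR. The mean difference was 1.2 points, and it became -11.5 points with SHR replicate 1 and BNLx replicate 3 left out together. The end at 3063 bases, of STRG.35041.5, ranged from 9.92% to 17.8% over the 6 libraries. The main start of the gene, that of STRG.35041.2, held 53.6%, 54.1% and 56.2% in BNLx rats, and 53.2%, 56.1% and 52.6% in SHR, and overlapped between the strains.

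The original 3′ end of Trip12 divided the libraries in another way than by strain. STRG.35041.2 held 3.1%, 0.582% and 19.7% in BNLx rats, and 3.42%, 24% and 17.1% in SHR. Together with STRG.35041.3, which has the same end, the shares were 4.41%, 0.825% and 26.4% in BNLx rats, and 4.56%, 35.5% and 23.5% in SHR. BNLx replicate 3 and SHR replicates 2 and 3 were high and the other 3 libraries low. The most proximal 3′ end of 5381 original transcripts with more than 1 end divided the libraries in the same way, with a mean share of 39.8%, 38.4% and 44.4% in BNLx rats, and 41%, 47% and 46.6% in SHR. The part of this whole-library shift in the Trip12 values was not tested. With SHR replicate 1 and BNLx replicate 3 left out, the shift runs along with strain, and the shift and strain cannot be told apart. The plot against the library means shows both groups of libraries.

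**Figure D4:**
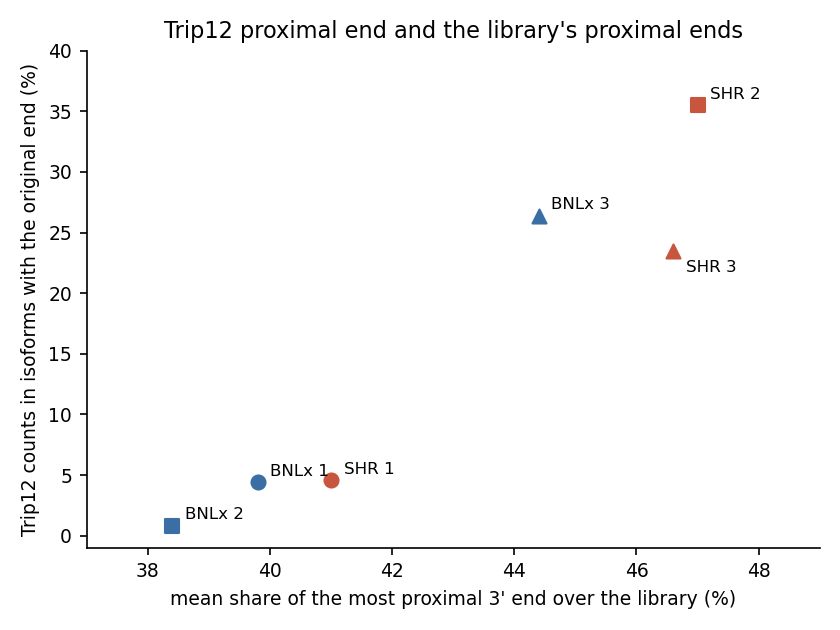
Share of Trip12 counts in isoforms with the original 3′ end (y axis, %) against the mean share of the most proximal 3′ end over 5381 original transcripts (x axis, %), 1 point per library. BNLx replicate 3 stands with SHR replicates 2 and 3 (23.5% to 35.5%), and SHR replicate 1 with BNLx replicates 1 and 2 (0.825% to 4.56%).

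Ube3c (rn6 chromosome 4, plus strand, 2505820 to 2606704) had no counts assigned to its original 3′ end in SHR. Its 6 isoforms past the filter come from a long transcript of 23 exons, STRG.15838.1, and a shorter one of 13 exons, STRG.15838.2, that starts 40408 bases further along, each with an original end and aptardi ends 170 bases before and 230 bases beyond it. A transcript of 2 exons, STRG.15838.3, has the same 3 ends, and its isoforms stayed under the filter and together held 7.33% of the counts in BNLx replicate 2, 2.95% in SHR replicate 1 and less than 1% in each other library. STRG.15838.1 held 11.4%, 8.3% and 2.46% in BNLx and had no count in any SHR library, which allows up to 0.113%. STRG.15838.2 held 7.66%, 7.66% and 0.569% in BNLx and was likewise at 0 in SHR. In CPM they stood at 8.25 ± 5.08 and 5.91 ± 4.57 in BNLx (SD, n = 3 each), at least 70.3-fold and 50.4-fold lower in SHR against the floor. All bases of both isoforms also lie in the aptardi isoforms that end 230 bases beyond them. Their counts, the 0 in SHR included, thus rest on how RSEM divided shared reads, and the floor does not cover this.

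With all isoforms of that end summed, its share was 19.1%, 16.1% and 3.03% in BNLx rats, and 0% in each SHR library. BNLx replicate 3 was again the nearest to SHR, and the mean difference of -12.7 points became -17.6 points without it. The end 170 bases before it held 61.9%, 63.1% and 82.3% in BNLx rats, and 81.4%, 83.4% and 83.9% in SHR, so that BNLx replicate 3 fell among the SHR libraries. The end 230 bases beyond it held 19.1%, 20.8% and 14.6% in BNLx rats, and 18.6%, 16.6% and 16.1% in SHR and overlapped. The original end was thus the end of Ube3c whose shares did not overlap between strains.

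Of the isoforms with the earlier end, STRG.15838.1.1 held 23.4%, 19.4% and 40.4% in BNLx rats, and 33.1%, 48.1% and 48.6% in SHR (30.9 ± 12.3 and 52.3 ± 15.4 CPM, SD, n = 3 each; log2 0.76, SE 0.37). Its mean share was 15.5 points higher in SHR, and 27 points higher with SHR replicate 1 and BNLx replicate 3 left out together. In that setting strain cannot be told apart from the whole-library shift given for Trip12. STRG.15838.2.1 held 37.5%, 36.9% and 41.9% in BNLx rats, and 45.3%, 35.3% and 35.2% in SHR (log2 0.07, SE 0.12). STRG.15838.1.2, with the long transcript's later end, held 13.6%, 10.3% and 11.8% and 12%, 13.6% and 13.5%. The isoform left, STRG.15838.2.2, ranged from 2.66% to 10.1%. The long transcript's start took 48.4%, 37.9% and 54.6% of the counts in BNLx rats, and 45.1%, 61.7% and 62.1% in SHR.

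Ube4a (rn6 chromosome 8, minus strand, 49229700 to 49271834) had an isoform that was assigned counts in SHR only. STRG.30825.4, an original isoform of 20 exons, was at 0 in every BNLx library, where Ube4a had 924 to 2745 counts, which allows a share of up to 0.325%. It held 20.8%, 7.38% and 11% in SHR (13.2 ± 6.93 CPM, SD, n = 3), at least 66.6-fold higher against the floor. As 5995 of its 6001 bases also lie in STRG.30825.3.3, its counts rest largely on how RSEM divided shared reads. This holds for the 0 in BNLx too, and the floor does not cover it. SHR replicate 1 was the highest, and without it the mean difference was 9.21 points in place of 13.1.

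The isoform STRG.30825.3.3, an aptardi isoform of 21 exons, held the largest share of the Ube4a counts in each library. Its share was 100%, 100% and 93.3% in BNLx rats, and 79.2%, 77.2% and 76.3% in SHR, while its level was 91.5 ± 13.8 and 78.4 ± 2.45 CPM (SD, n = 3 each; log2 -0.22, SE 0.15). STRG.30825.4 shares 5995 of its 6001 bases with STRG.30825.3.3 and starts 2423 bases downstream of it. Its own 6 bases and the 176 bases that it lacks, with a splice site moved by 57 bases in between, are what sets the pair apart. Their 3′ ends lie 17 bases apart. With ends within 100 bases taken as 1, this end held 100%, 100% and 93.3% in BNLx rats, and 100%, 84.5% and 87.3% in SHR and overlapped, so that the strains remained apart at the 5′ start and the splice site only. Among isoforms with counts, STRG.30825.4 alone carries that start and that splice site. The start and the splice site thus reflect the same division of counts and are not separate differences.

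The isoform past the filter that was left, STRG.30825.3.1, ends 2583 bases before STRG.30825.4. It was at 0%, 0% and 6.71% in BNLx and at 0%, 15.5% and 7.18% in SHR. BNLx replicate 3 and SHR replicates 2 and 3 were again the libraries with counts, as at the original end of Trip12. The shortest 3′ end of Pja2 past the filter, that of STRG.35480.4, 2387 bases before the end of STRG.35480.2, was filled in the same 3 libraries, at 2.98% in BNLx replicate 3 and 10% and 8.76% in SHR replicates 2 and 3. The plot of 3′ ends shows these libraries beside the ends that separated the strains.

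**Figure D5:**
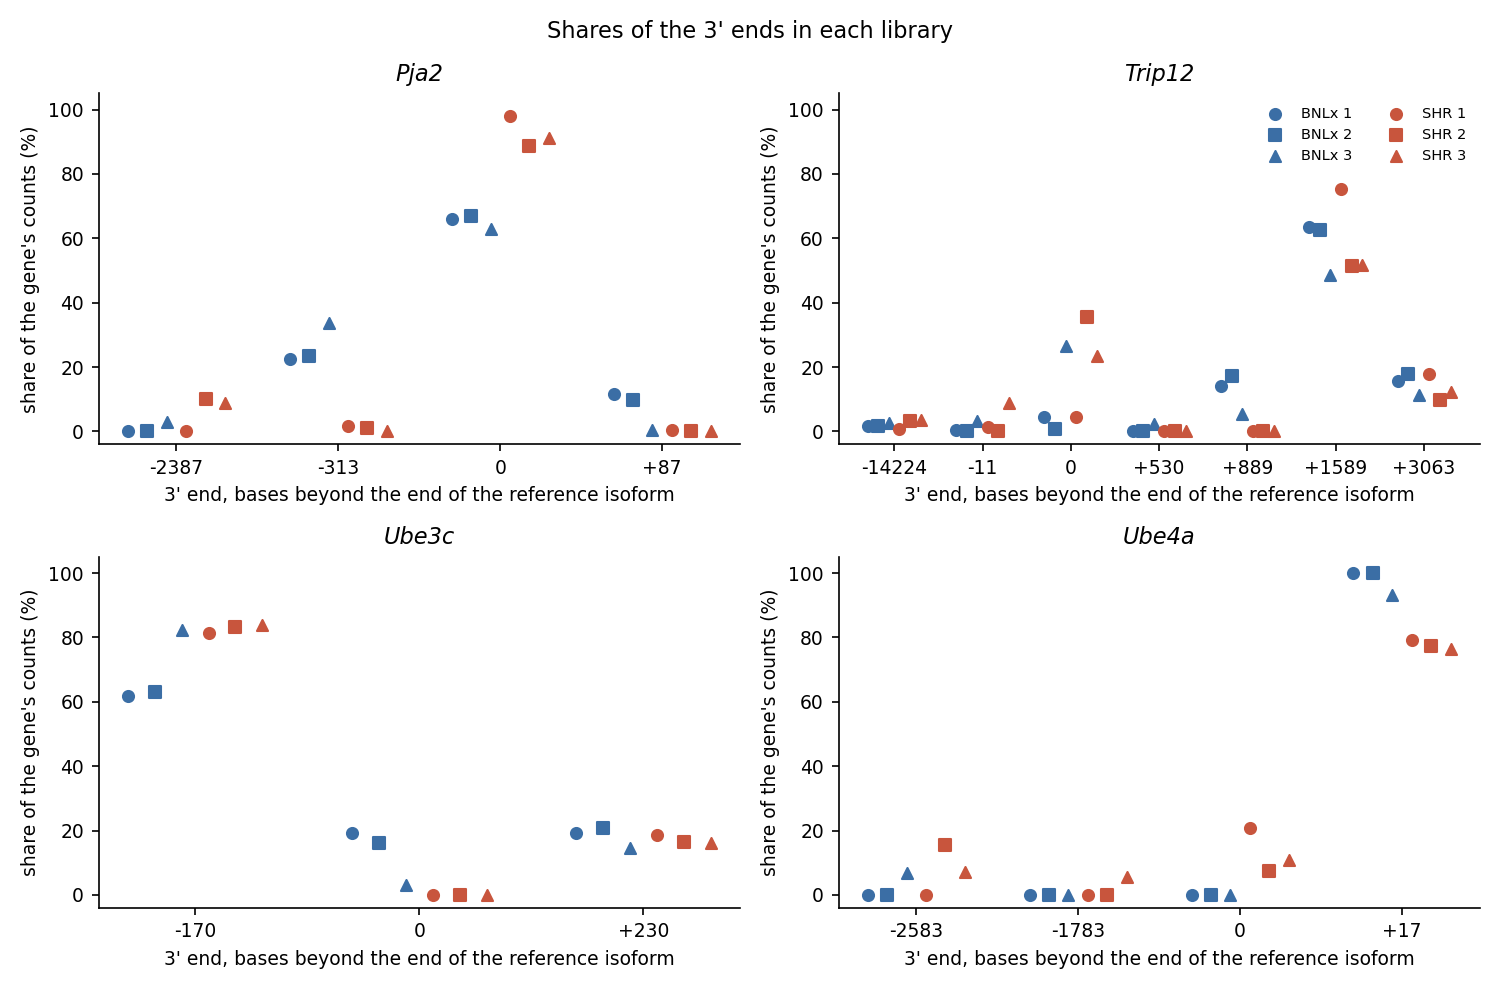
Share of each gene's counts (y axis, %) by 3′ end (x axis, bases beyond the end of the reference isoform, negative before it, evenly spaced and not to scale) in each library (BNLx blue, SHR red), for ends that reach 1% in a library. Trip12 at +889 bases and Ube3c at 0 are filled in BNLx and at 0.0212% or less in SHR, while the ends most proximal to the start in Pja2 and Ube4a follow single libraries.

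Aptardi isoforms carried different parts of the 4 genes. With those under the filter included, they summed to between 33% and 34.2% of Pja2 in BNLx and between 0.0927% and 2.06% in SHR. For Ube3c the sums were 80.9% to 97% in BNLx rats, and 100% in each SHR rat, and for Ube4a 100% in each BNLx rat and 79.2% to 92.6% in SHR. In Trip12 they ranged from 57.4% to 79.5% in BNLx and from 51.3% to 76.8% in SHR and overlapped. The 5 isoforms past the filter that were at 0 throughout 1 strain were all original ones, as were 11 of all 24 past the filter. How many of the 401 such isoforms of the whole series are original was not counted, so this only describes these genes.

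Other genes of the pathway did not pass the gene test. Of 150 listed genes of ubiquitin ligases, E1 and E2 enzymes, the proteasome, ubiquitin shuttling and protein kinase A, 72 had a named locus and were tested. None was called by edgeR at an adjusted p of 0.05, against 0.947% of all 14471 genes. For 72 genes this is near the share over all genes and does not set the pathway apart. Of the 72, 4 had an unadjusted p of 0.05 or less. DESeq2 called 1, Ube2j1 (adjusted p = 0.0166), against 543 of all genes. The 4 were Ube2j1 and Ube2a, which are E2 enzymes, Psma4, a subunit of the proteasome core, and Arel1, a HECT ligase. Their log2 fold changes were -0.28, -0.29, -0.41 and 0.52, with adjusted p values of 0.344, 0.471, 0.443 and 0.448 from edgeR. Across all genes, 10.1% had an unadjusted p of 0.05 or less.

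The closest relatives of the ligases with a locus of their own had totals that overlapped between the strains. Pja1, the paralog of Pja2, had 274 ± 36.8 CPM in BNLx rats, and 261 ± 54.3 in SHR rats (mean ± SD of 3; log2 -0.07, SE 0.19, adjusted p = 0.94 from edgeR). Ube4b, the paralog of Ube4a, stood at 107 ± 3.59 and 122 ± 12.1 CPM (log2 0.18, SE 0.11, adjusted p = 0.677 from edgeR). Ube3a, Ube3b and Huwe1 had no named locus and were not analysed here.

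For isoform usage, 52 of the listed loci could be tested with diffSpliceDGE, and 1 was called, against 4.37% of all 7742 loci. This was Psma4 (adjusted p = 0.0271 from edgeR). Leaving out 1 rat ended the call for BNLx replicate 1 (adjusted p = 0.0803 from edgeR), BNLx replicate 2 (0.13), SHR replicate 2 (0.0689) and SHR replicate 3 (0.15). The next lowest p values were those of the RING ligase Rnf13 (adjusted p = 0.0563 from edgeR) and of Prkacb, a catalytic subunit of protein kinase A (0.0672). Hectd3, Prkar2a, Ubr2, Mib2, Hecw2, Siah2 and Ube4b followed, with adjusted p values from 0.13 to 0.467.

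With SHR replicate 1 and BNLx replicate 3 left out, more genes were called in the pathway and in the whole series. Then 30 of the 72 listed genes (41.7%) were called by edgeR, 11 higher and 19 lower in SHR. Of all 13932 genes tested, 32.2% were called, 2365 higher and 2128 lower in SHR. The libraries that remained, 2 per strain, were the pairs that differed least from each other, so the spread behind these calls was the smallest of the possible pairs. They also differed by strain in the mean share of the most proximal 3′ end, 39.8% and 38.4% in BNLx against 47% and 46.6% in SHR. In these calls strain and this whole-library shift cannot be told apart. The genes lower in SHR were 11 of 14 proteasome subunits, 6 of 13 E1 and E2 enzymes, Hectd3 and Rps27a, which encodes ubiquitin fused to a ribosomal protein. Psma4 had a log2 fold change of -0.64 (SE 0.08) and Psmd4, a ubiquitin receptor of the proteasome, of -0.44 (SE 0.07). The genes higher in SHR were 6 of 22 RING ligases, 3 of 10 HECT ligases, Ube4b (0.28, SE 0.06) and Prkar2a (0.32, SE 0.09), a regulatory subunit of protein kinase A. These lists were not called apart from the rest of the genes by any test.

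The genes with totals most like those of the 4 ligases over the 6 libraries were found by the Pearson correlation of log2 CPM among 5393 genes. For Pja2 these were Atp2b1 (r = 0.997), a calcium pump of the plasma membrane, Nr2f1 (0.992) and AABR07048624.1 (0.99). For Trip12 they were the locus of AC096430.1 and Tmod2 (0.99), Ank3 (0.989), the ankyrin of the axon initial segment, and the histone methyltransferase Kmt2a (0.988). For Ube3c they were Ctnnd2 (0.998), the locus of Dctn1 and LOC500227 (0.997) and AABR07072755.1 (0.994). For the locus of Ube4a and Atp5mg they were LOC100912008 (0.999), Vps28 (0.991) and Rpl36a (0.988). All points come from the same 6 libraries, the libraries that stood apart weigh on each r, and the highest of 5393 values is high by selection.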

How the data were processed

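PolyA RNA of 6 rat brains (3 BNLx, 3 SHR) was measured. The authors aligned reads with HISAT2 to genomes of each strain made from rn6, assembled transcripts with StringTie 1.3.5, added 3′ ends with aptardi and estimated abundances with RSEM. Expected counts, which carry no normalization, and TPM, scaled by the authors within each library, were deposited for isoforms and for genes. Which genome sequence RSEM worked on is not given in the sources used here. RSEM divides the reads that near-identical isoforms share by a model, so a 0 is an estimate. Floors are 3 counts per library and, like all limits on a 0, cover counting error only.

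After rounding, edgeR 4.0.16 (R 4.3.3) fitted the counts with TMM scaling, and a robust quasi-likelihood test, two-sided, compared the strains. Isoforms and genes with at least 50 counts in 2 of 3 replicates of a strain were kept. Genes and isoform usage (diffSpliceDGE) were called at a Benjamini-Hochberg adjusted p of 0.05, isoforms at an unadjusted p of 0.001, as the study did. CPM used TMM library sizes. Each library is 1 rat, and p-values measure the spread between these libraries. The members and the gene lists were chosen with earlier results of these data known.

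All member isoforms were counted. Those given in full have a mean share of at least 10% in a strain, strain means at least 10 points apart, or 0 counts throughout 1 strain. Listed genes were named where called, among the 10 lowest p values for usage, or as relatives of the members, and those with an unadjusted p of 0.05 were added after their values were seen. On simulated data with the sizes of these libraries, 46.5% of 200 isoforms and 87.5% of 200 genes changed 4-fold were recovered, with 28 false calls of 32348 isoforms and 10 of 14471 genes, and 94% of 200 loci with a minor isoform changed 16-fold, with 12 false calls of 7742. Alternatives were DESeq2 1.42.0, limma 3.58.1 on voom weights or on log2 TPM, other size factors, no filter, no robust dispersion, other thresholds, shares of TPM, libraries left out and a replicate block. Some listed relatives are not reported here. Sequences of the isoforms were not used here.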

Additional observations from a re-analysis of the deposited data

How the results depend on the processing

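The sensitivity of the counts of calls was large. The isoform exchange of Pja2 changed little in size, while some values of Trip12, Ube3c and Ube4a moved beyond the spread between replicates. With DESeq2, 1166 isoforms, 543 genes and 1 listed gene were called, against 308, 137 and 0, and limma on voom weights called 153 loci for usage against 338. With SHR replicate 1 and BNLx replicate 3 left out together, the counts were 1121 isoforms, 4493 genes, 2017 loci, 30 listed genes and 17 listed loci for usage, while Trip12 had a log2 fold change of 0.33 in total and share differences (SHR minus BNLx) of 26.9 points at its original end and -11.5 at the end of STRG.35041.2.2, where the sign turned. STRG.15838.1.1 of Ube3c then differed by 27 points and the end of STRG.30825.3.3 of Ube4a by -23.3. Thresholds of 0.01 for isoforms and 0.1 for genes and usage gave 1025 isoforms, 245 genes and 3 listed loci, and no filter gave 3 listed loci. The cause of these moves was not tested. With SHR replicate 1 and BNLx replicate 3 left out, strain cannot be told apart from the whole-library shift of 3′ ends.

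Leaving out 1 rat each gave 194 to 390 isoforms, 12 to 137 genes, 219 to 624 loci and 0 to 5 listed loci for usage. It turned the sign of the Pja2 total (-0.14 to 0.05) and of the Trip12 end of STRG.35041.2.2 (-6.73 to 5.27 points), but of no isoform share followed. Shares of TPM gave 85.3 points for the 28-base intron of Pja2, -61.7 for STRG.35480.2 and -23.5 for the end of STRG.30825.3.3. With ends within 100 bases taken as 1, the end of STRG.30825.3.3 was at -7.16. In alternatives chosen after seeing the data, Ube4a summed apart from Atp5mg gave a log2 fold change of 0.11, and shares over the whole locus gave 6.17 points for STRG.30825.4 and -3.84 for the end of STRG.30825.3.3. Of 258 alternative values, 218 stayed within the spread between replicates or within 1.5 times the count. This bound is wide where replicates vary, so staying within it says little there. At the original end of Trip12, with a spread of 14.8 points, leaving out 1 rat gave 3.49 to 18.9 points, all within it.

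The sample titles state no pairing of the rats by replicate number. In deviations from the strain means, same-numbered rats correlated at -0.04, 0.32 and -0.2, where all pairs across strains ran from -0.33 to 0.32. These values do not settle whether the rats are paired. A replicate block gave 44 isoforms, 0 genes and 2 listed loci for usage, Prkacb and Prkar2a, while Psma4 lost its call (adjusted p = 0.0635 from edgeR). Depth limits the isoforms at 0 to the shares given with them.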
